A study of Mus musculus with 8 samples.

Results

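Cadherins are calcium-dependent receptors that hold cells together, and catenins are the proteins that bind their tails. The 9 genes described here were taken by name, 6 cadherins and 3 catenins: Cdh1, Cdh3, Cdh2, Cdh11, Cdh13, Cdh23, Ctnnb1, Ctnna1 and Ctnnd1. They are 9 of the 16593 genes named on the array, and 21 of its 25697 probes carry their symbols. Of these, 8 genes and 14 probes were bright enough to be tested, among 9085 genes and 12838 probes in all. In KO dental tissue, 3 of the genes were higher (Cdh1, Cdh13 and Ctnnb1), 4 were lower (Cdh3, Cdh2, Cdh11 and Cdh23), Ctnna1 was not past the threshold and Ctnnd1 was not detected on any array.

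The tissue came from the maturation (Mat) stage of the mouse incisor, the zone where enamel hardens, in 10 wk old C57BL/6 mice. KO mice carried homozygous floxed Med1 alleles (Med1 fl/fl) and Cre under the keratin 14 (Krt14) promoter, so that Med1, a subunit of the Mediator complex that couples transcription factors to RNA polymerase, was removed from Krt14-expressing epithelia alone. CON mice were littermates with the same floxed alleles and no Cre. KO incisors grew hairs and lacked enamel, and CON incisors formed enamel. By this design fibroblasts, vessels, muscle and immune cells of the KO tissue keep the gene, which was not measured by cell type here. Tissue of 3 mice was combined, giving 4 KO and 4 CON hybridisations to the Illumina MouseRef-8 bead array. The dissection methods describe 4 samples that each joined tissue of 3 mice, while the array methods give an n of 3, so whether each of the 4 arrays of a group had its own pool is not settled, and each p-value reflects the spread among these samples and nothing wider, and that spread may be technical.

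In a classical cadherin the outer repeats bind the same cadherin on a neighbouring cell when calcium is present. The tail binds beta-catenin (Ctnnb1) and p120-catenin (Ctnnd1), and alpha-catenin (Ctnna1) links beta-catenin to actin. Epithelia of tooth and skin are known for E-cadherin (Cdh1) and P-cadherin (Cdh3), and mesenchyme for N-cadherin (Cdh2) and cadherin 11 (Cdh11). Cadherin 13 (Cdh13) has no tail and is held in the membrane by a lipid anchor. Cadherin 23 (Cdh23) is a very long cadherin of the tip link that opens the channels of inner ear hair cells. Beta-catenin also has a nuclear role, as the partner of TCF/LEF factors in Wnt signalling.

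Levels below are background-corrected and quantile-normalized log2 intensities, and each difference is KO minus CON on that scale. A probe was detected on an array when its detection p, against the negative control beads, was under 0.01, and it was tested when it was detected on at least 4 of the 8 arrays. The mean raw intensity of an array was 550.8 to 811.9, and 11554 to 13134 probes were detected. Of the tested probes, 2878 were higher in KO (22.4%) and 4787 lower (37.3%), and their median difference was -0.14. The deleted gene Med1 had a level of 7.54 ± 0.18 in KO and 8.30 ± 0.25 in CON (SD, n = 4 each) on its tested probe. That is a fall by 0.76 ± 0.13 (SE) with an adjusted p of 0.00075 from limma. Where this probe lies relative to the deleted part is not known here. Another Med1 probe, detected on 0 KO and 3 CON arrays and not tested, averaged 5.073 in KO and 5.635 in CON. The remaining Med1 probes were undetected on every array, at 4.71 and 4.44 in KO and 5.27 and 4.41 in CON. Lists of cell type markers moved between the groups as well. All 6 tested markers of suprabasal epidermis were higher in KO, with a summed level of 60962 to 62214 in KO and 3962 to 4853 in CON on the linear scale. So were 7 of 7 macrophage markers (26033 to 28457 in KO, 2892 to 3083 in CON), 8 of 8 skeletal muscle markers (21936 to 24190 in KO, 5929 to 6708 in CON), 3 of 3 Schwann cell markers (806 to 901 in KO, 356 to 410 in CON) and 2 of 2 red cell genes (21037 to 26028 in KO, 13936 to 16434 in CON). Of the fibroblast and dental mesenchyme markers 6 of 9 were higher and 0 lower (49992 to 56718 in KO, 38497 to 40256 in CON), of the odontoblast and osteoblast markers 4 of 5 and 0 (27536 to 30844 in KO, 20443 to 21933 in CON), and of the endothelial markers 3 of 6 and 0 (6021 to 6982 in KO, 4374 to 5043 in CON). Markers of the labelled dental epithelium were detected in both groups. Of the ameloblast markers 3 of 6 were higher and 1 lower (47808 to 52983 in KO, 40129 to 42879 in CON), and of the general epithelial markers 2 of 9 were higher and 5 lower (52544 to 54306 in KO, 56831 to 59524 in CON). Wdr72, Ivl, Postn, Dspp, Dmp1, Kdr, S100b, Cdh19 and Hbb-b2 of these lists were not detected on any array. The part of these shifts in the cadherin and catenin values was not tested, and in bulk tissue fewer cells of a type and less RNA per cell cannot be told apart.

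Of the 8 tested cadherin and catenin genes, 7 passed the threshold of 5% after Benjamini-Hochberg adjustment, against 60.9% of all tested genes. The 3 higher and 4 lower stood against 24.4% and 36.5% of all genes, and the median difference of the 8 was -0.29, against -0.12 over all tested genes. In 4 of the 8 genes the KO and CON arrays did not overlap, against 56.8% of all tested genes. Cdh23 is 1 of these 4 and of the 7 that passed. It was tested through detection on 4 CON and 0 KO arrays, so its separation was in part built in by the filter. The list counts below likewise include genes tested through detection in KO alone, among them Celsr3, Grhl3 and Adipoq. Counted by probe, 11 of the 14 tested passed, against 59.7% of all tested probes, and 8 of the 14 did not overlap, against 54.6%. The 9 genes shared no direction.

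**Figure D1:**
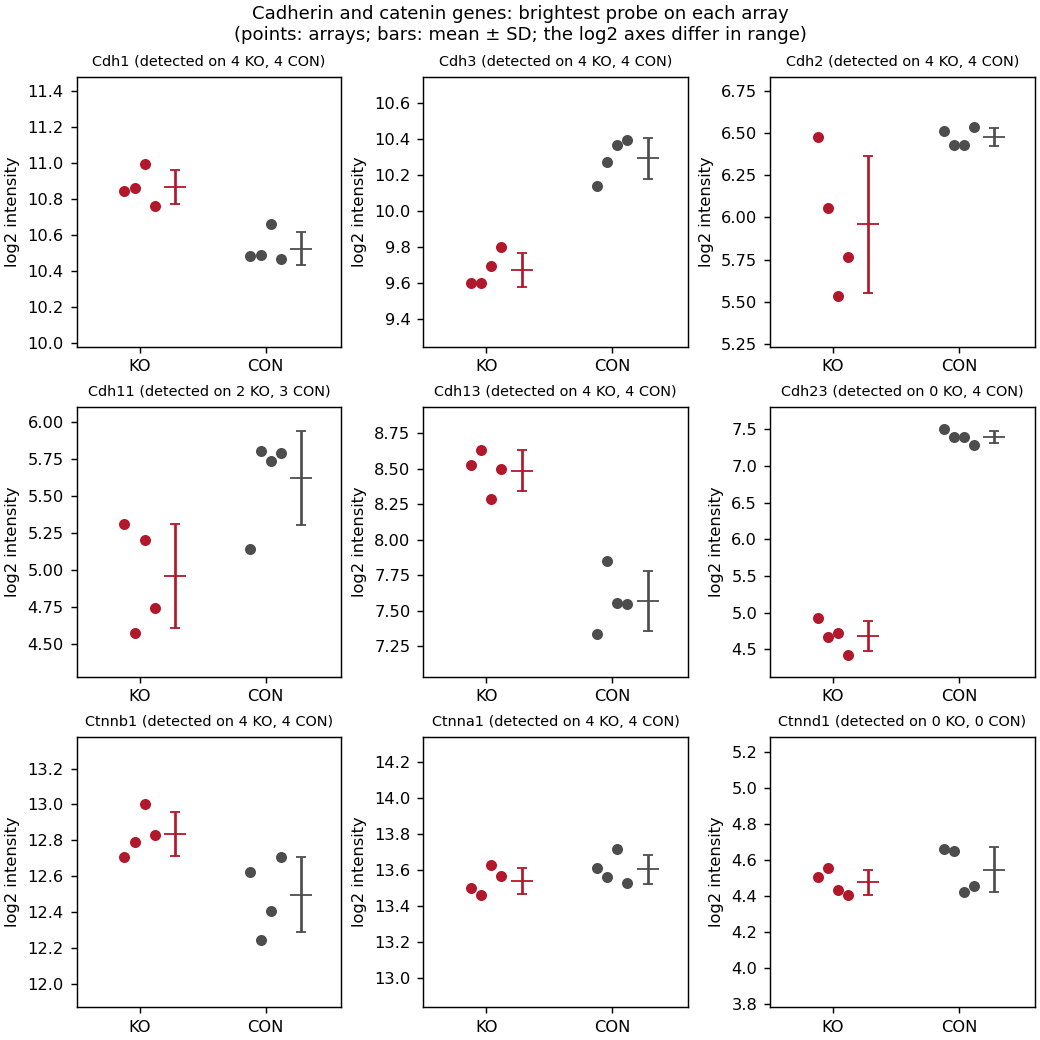
Each panel shows 1 gene's brightest probe, with the log2 intensity on each of the 4 KO arrays (left) and 4 CON arrays (right) as points and the mean ± SD as bars, on axes that differ in range. Cdh3 and Cdh23 lie wholly lower in KO, Cdh1 and Cdh13 wholly higher, and the Cdh2, Cdh11, Ctnnb1, Ctnna1 and Ctnnd1 arrays overlap.

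E-cadherin, the main cadherin of epithelial cells, was modestly higher in KO tissue. Its 1 probe read 10.85, 10.86, 11.00 and 10.76 on the KO arrays, against 10.48, 10.49, 10.66 and 10.47 on the CON arrays. All 4 KO arrays lay above all 4 CON arrays, and the nearest pair, KO4 and CON3, were 0.10 apart. The mean was 10.87 ± 0.10 in KO and 10.53 ± 0.09 in CON (SD, n = 4 each). Cdh1 rose by 0.34 ± 0.08 (SE), which is 1.27-fold, and the 95% interval was 0.17 to 0.52 (adjusted p = 0.0040). That difference ranked at the 80.2 percentile of all tested probes. With arrays aligned by their medians alone the difference was 0.18 and the call was lost (adjusted p = 0.13). The call was lost too at the cutoffs of the study's methods, which ask for a fold over 1.5.

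P-cadherin, which sits beside E-cadherin in basal epithelial cells and in hair follicle matrix, went the other way. The brightest of its 4 probes read 9.60, 9.60, 9.70 and 9.80 on the KO arrays, against 10.14, 10.27, 10.37 and 10.40 on the CON arrays. The groups were 0.34 apart at their nearest, wider than the range within either group. Cdh3 averaged 9.67 ± 0.10 in KO and 10.29 ± 0.12 in CON (SD, n = 4 each), so it fell by 0.62 ± 0.08 (SE), which is 1.54-fold (adjusted p = 0.00013). The second probe, which the array's design ties to a different transcript record, read 9.17, 9.18, 9.23 and 9.31 on the KO arrays, against 9.85, 9.86, 10.04 and 9.91 on the CON arrays. It gave nearly the same change, a fall by 0.69 ± 0.07 (SE) with an adjusted p of 2.3e-05. The third probe averaged 7.49 ± 0.17 in KO and 7.88 ± 0.08 in CON (SD, n = 4 each) and fell by 0.39 ± 0.09 (SE), with an adjusted p of 0.0057. Under cyclic loess its difference was -0.17 and the call was lost (adjusted p = 0.18). The dimmest probe was detected on only 2 KO and 2 CON arrays and did not pass, at 5.35 ± 0.17 in KO and 5.51 ± 0.20 in CON (SD, n = 4 each), with a difference of -0.16, a 95% interval of -0.42 to 0.10 and an adjusted p of 0.26. The brightest and second probes kept their call under every alternative tried.

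Set side by side within each array, the 2 epithelial cadherins moved apart. Cdh3 minus Cdh1 was -1.25, -1.27, -1.30 and -0.96 on the KO arrays, against -0.34, -0.22, -0.30 and -0.07 on the CON arrays. Probe levels of different genes cannot be compared, so only the shift between the groups counts. It was -0.96, or 1.95-fold, with no overlap between the groups. The exact two-sided permutation test over the 70 labellings gave p = 0.0286, the smallest that 4 arrays against 4 allow. After adjustment over the 3 such contrasts made it was 0.0429. Cdh1 lay wholly higher and Cdh3 wholly lower in KO, so this separation and its p were already fixed. They add no evidence beyond that of the 2 genes, and only the size of the shift is informative. Under the alternative scalings and probe choices the shift lay between -0.96 and -0.81.

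**Figure D2:**
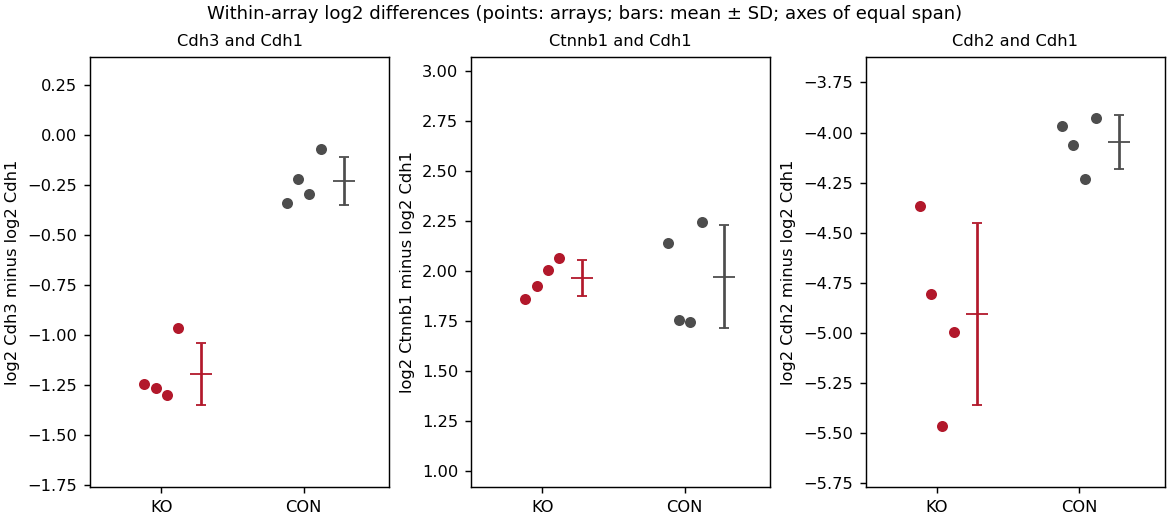
The log2 difference between 2 genes on the same array is plotted for the 4 KO arrays (left) and the 4 CON arrays (right) of each panel, with mean ± SD bars and vertical axes of equal span. Cdh3 minus Cdh1 and Cdh2 minus Cdh1 lie wholly lower in KO, and Ctnnb1 minus Cdh1 overlaps between the groups.

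N-cadherin, known from mesenchyme, nerve and muscle and from differentiating ameloblasts, was lower in KO tissue but unevenly so. Its brightest probe read 6.48, 6.06, 5.53 and 5.77 on the KO arrays, against 6.52, 6.43, 6.43 and 6.54 on the CON arrays. The CON arrays lay within 0.11 of each other, whereas the KO arrays spread over 0.95 and the highest, KO1, lay among the CON values. Cdh2 averaged 5.96 ± 0.41 in KO and 6.48 ± 0.06 in CON (SD, n = 4 each) and fell by 0.52 ± 0.17 (SE), which is 1.43-fold, with a 95% interval of -0.91 to -0.14 (adjusted p = 0.025). The call was lost under cyclic loess (difference -0.31, adjusted p = 0.14) and without CON1, CON4, KO3 or KO4 (adjusted p = 0.053, 0.053, 0.058 and 0.067), and without background correction the difference shrank to -0.19. Of its other 3 probes, 1 was detected on 1 KO and 1 CON array and the remaining pair on none. Within each array Cdh2 minus Cdh1 was -4.37, -4.81, -5.46 and -5.00 in KO, against -3.97, -4.06, -4.23 and -3.93 in CON. That shift of -0.86 had an exact permutation p of 0.0286 (0.0429 adjusted), and under median scaling it was -0.67 with p = 0.0571. The shift includes the rise of Cdh1, whose KO and CON arrays did not overlap by themselves.

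Cdh11, a type II cadherin of mesenchymal and bone-forming cells, was near the detection limit. Its brightest probe read 5.31, 4.58, 5.20 and 4.75 on the KO arrays, against 5.14, 5.80, 5.74 and 5.79 on the CON arrays. It was detected on 2 KO and 3 CON arrays, and the lowest CON array, CON1, lay below the KO1 and KO3 values. Cdh11 averaged 4.96 ± 0.35 in KO and 5.62 ± 0.32 in CON (SD, n = 4 each) and fell by 0.66 ± 0.20 (SE), with a 95% interval of -1.10 to -0.22 and an adjusted p of 0.015. Of the 9 tested fibroblast and dental mesenchyme markers, 6 rose, 0 fell and 3 did not pass, and their relation to Cdh11 was not tested. Its difference shrank to -0.17 without background correction, -0.20 in the authors' normalized values and -0.35 with an offset of 50, and its other 2 probes were not detected on any array.

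Cdh13, also called T-cadherin, is known from blood vessels, muscle and basal skin cells, where it binds adiponectin. It had the largest rise among the 9 genes, seen by both of its probes. The brighter probe read 8.53, 8.64, 8.29 and 8.50 on the KO arrays, against 7.33, 7.85, 7.55 and 7.55 on the CON arrays. The lowest KO array, KO3, lay 0.44 above the highest CON array, CON2. Cdh13 averaged 8.49 ± 0.15 in KO and 7.57 ± 0.21 in CON (SD, n = 4 each), so it rose by 0.92 ± 0.12 (SE), which is 1.89-fold, with a 95% interval of 0.65 to 1.18 (adjusted p = 9.0e-05). The dimmer probe read 6.85, 6.50, 6.68 and 6.40 on the KO arrays, against 6.04, 5.63, 6.07 and 5.97 on the CON arrays, again without overlap. Its rise was 0.68 ± 0.13 (SE), with an adjusted p of 0.0011. Both calls held under every alternative tried, and the dimmer probe's difference shrank to 0.26 without background correction.

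Cdh23 had the largest difference of the 9 genes. Its brightest probe read 4.92, 4.67, 4.73 and 4.43 on the KO arrays, against 7.50, 7.39, 7.39 and 7.29 on the CON arrays. It was detected on 0 of 4 KO and 4 of 4 CON arrays, as were 54 of all tested probes (0.421%), and the groups were 2.37 apart at their nearest. In raw bead intensity the probe read 117.2 to 145.1 in KO and 247.2 to 276.1 in CON. Because KO tissue gave only a bound, Cdh23 was at least 4.31-fold lower in KO, a bound that replaces each undetected KO value by the dimmest detected probe of that array where this was brighter. The fitted difference was -2.71 ± 0.11 (SE) with an adjusted p of 1.5e-08, from means of 4.69 ± 0.20 in KO and 7.39 ± 0.09 in CON (SD, n = 4 each). The second probe read 4.91, 4.72, 4.73 and 4.81 on the KO arrays, none of them detected, against 6.07, 6.75, 6.05 and 5.96 on the CON arrays, all of them detected. That probe was at least 1.90-fold lower, with an adjusted p of 3.7e-05. The third probe was not tested, being detected on CON4 alone, and read 4.33, 4.39, 4.43 and 4.28 on the KO arrays, against 4.65, 4.68, 5.13 and 5.66 on the CON arrays. The first and second probes thus lay wholly lower in KO, and both were tested through their detection on CON arrays alone. The third probe did not overlap either, but its values were undetected on every array except CON4. No weight is placed on its separation. Over the alternatives in which they were tested, the differences of the first and second probes ranged from -2.79 to -1.002 and from -1.45 to -0.41 and stayed past the threshold, so their size, bounds included, rests on the background correction.

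The promoter of Cdh23 is shown because no member changed more. It is the window from 250 bases before to 50 bases after the annotated start, on the minus strand at chr10:60696441-60696740, from RefSeq on build GRCm38.p6, written 5′ to 3′.
Cdh23 promoter: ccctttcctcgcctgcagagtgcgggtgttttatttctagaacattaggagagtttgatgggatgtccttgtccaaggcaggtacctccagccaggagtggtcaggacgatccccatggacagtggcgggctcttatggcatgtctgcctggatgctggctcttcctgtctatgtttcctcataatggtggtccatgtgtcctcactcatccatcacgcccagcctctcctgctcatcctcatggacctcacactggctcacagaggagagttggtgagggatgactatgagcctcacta
It held 54.0% G and C and 5 CpG, against medians of 52.7% and 7 over 32851 promoter windows of that length. No capitals appear because none of the 4 motifs searched on both strands was found in it. These were CACCTG, the E-box bound by Snai and Zeb factors (in 20.2% of all windows), CTTTGA, the TCF/LEF core (16%), TGANTCA, the AP-1 site (7.8%), and GGGCGG, the GC box (35.7%). That says only that these letters are not in this window.

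**Figure D3:**
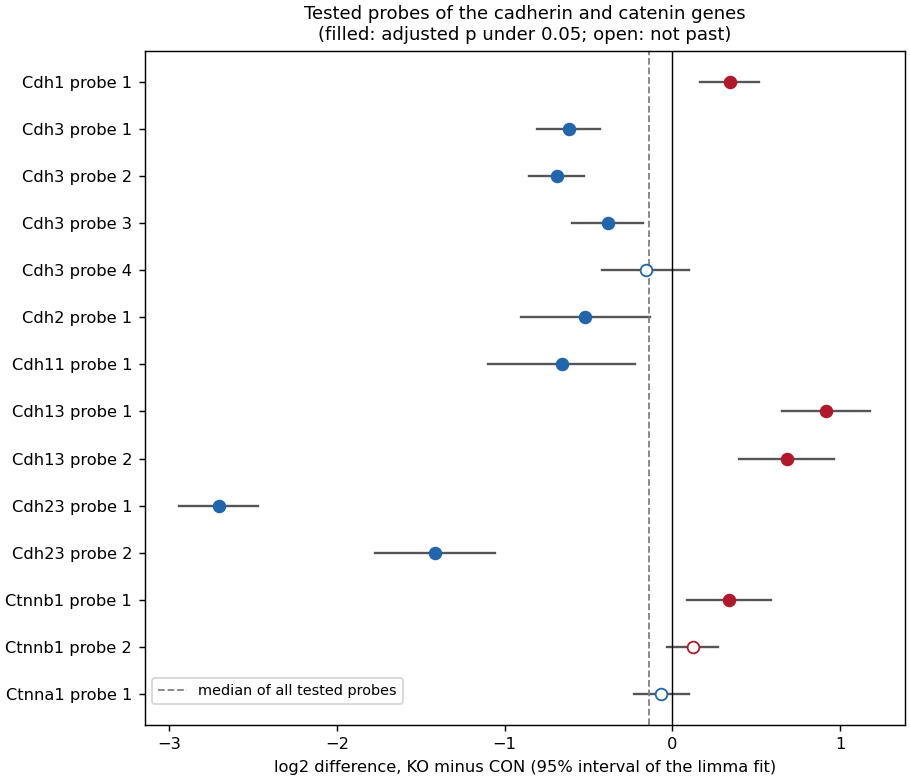
The log2 difference KO minus CON of each of the 14 tested probes is shown with the 95% interval of the limma fit, filled where the adjusted p was under 0.05, with the median of all tested probes as a dashed line. The brighter Cdh3 probes, both Cdh13 probes and both Cdh23 probes have intervals clear of 0 on the same side as the other probes of their gene, while only 1 of the 2 Ctnnb1 probes passes.

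Of the 3 catenins, Ctnnb1 was higher, Ctnna1 was not past the threshold and Ctnnd1 could not be measured. Beta-catenin, which both joins cadherin tails to alpha-catenin and carries the Wnt signal, read 12.71, 12.79, 13.00 and 12.83 with its brighter probe on the KO arrays, against 12.62, 12.25, 12.41 and 12.71 on the CON arrays. The lowest KO array, KO1, and the highest CON array, CON4, met at 12.71. Ctnnb1 averaged 12.83 ± 0.12 in KO and 12.50 ± 0.21 in CON (SD, n = 4 each) and rose by 0.34 ± 0.11 (SE), which is 1.26-fold (adjusted p = 0.025). The second probe read 10.86, 10.78, 10.95 and 10.80 on the KO arrays, against 10.68, 10.79, 10.71 and 10.73 on the CON arrays, and did not pass, with a difference of 0.12, a 95% interval of -0.03 to 0.27 and an adjusted p of 0.15. The brighter probe's call was lost under median scaling (difference 0.19, adjusted p = 0.18) and without CON2, CON3, KO3 or KO4 (adjusted p = 0.066, 0.061, 0.070 and 0.0502). The second probe passed under cyclic loess (0.22, adjusted p = 0.024) and had a difference of -0.04 under median scaling.

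Ctnnb1 minus Cdh1, set within each array, was 1.86, 1.93, 2.005 and 2.07 in KO, against 2.14, 1.76, 1.75 and 2.24 in CON. The CON arrays spread on both sides of the KO arrays. The shift was -0.0059 with an exact two-sided permutation p of 0.971, which does not show that the genes changed alike. The promoter of Ctnnb1 is shown because it was the only catenin of the 9 genes to pass. Its first annotated start gives the window chr9:120933150-120933449 on the plus strand (RefSeq, GRCm38.p6), where capitals mark the GC box GGGCGG read on the opposite strand.
Ctnnb1 promoter: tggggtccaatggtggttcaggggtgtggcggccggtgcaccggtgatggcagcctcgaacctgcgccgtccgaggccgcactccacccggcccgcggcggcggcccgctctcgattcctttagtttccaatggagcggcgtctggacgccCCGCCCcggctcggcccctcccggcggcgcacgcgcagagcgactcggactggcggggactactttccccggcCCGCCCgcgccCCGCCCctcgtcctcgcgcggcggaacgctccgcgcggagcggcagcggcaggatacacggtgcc
It held 75.3% G and C and 46 CpG, with 3 GC boxes and none of the other 3 motifs. Ctnnd1 had windows as well, without any of the 4 motifs, and Cdh1, Cdh2, Cdh3, Cdh11, Cdh13 and Ctnna1 are named only.

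Alpha-catenin, the link to actin, was read by 1 probe at 13.50, 13.46, 13.63 and 13.57 on the KO arrays, against 13.61, 13.56, 13.72 and 13.53 on the CON arrays. The groups overlapped. Ctnna1 averaged 13.54 ± 0.07 in KO and 13.61 ± 0.08 in CON (SD, n = 4 each), a difference of -0.07 ± 0.07 (SE) with a 95% interval of -0.23 to 0.10 and an adjusted p of 0.46. Its interval reaches no further than a change of 0.23 on the log2 scale, and the difference ranged from -0.19 to 0.03 over the alternatives. For p120-catenin, which keeps cadherins at the membrane, the 1 probe was not detected on any of the 8 arrays and read 4.41 to 4.56 in KO and 4.42 to 4.66 in CON. No fold is given for Ctnnd1, since both groups were below the detection limit.

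Each member's level over the 8 arrays was then set against that of the other 9084 tested genes, as a description only, since the points are the same 8 arrays and share the contrast of KO with CON. Cdh23 was most like the secretoglobins Scgb1b2 and Scgb2b24 (Pearson r = 0.999 each), and 1744 genes had r over 0.9 with it. Cdh13 was most like Dpt (0.994) and Rhov (0.989), and Cdh3 like Wdr47 (0.997) and Rusf1 (0.994), with 1157 and 1200 genes over 0.9. Cdh1 was most like Ostc (0.985) and Pigz (0.983), with 634 such genes. For Cdh2 the nearest were Reck (0.977) and Abcc5 (0.976), for Cdh11 Chrna5 (0.979) and Bag3 (0.969), and for Ctnnb1 Rps20 (0.984) and Plekhm1 (0.964), with only 67, 69 and 35 genes over 0.9. Ctnna1 had 4, the nearest being Tnfrsf12a (0.953) and Sdhaf2 (0.911). The members that overlapped between the groups had fewer genes like them than those that did not. Of all tested genes 56.8% did not overlap, and whether this accounts for the lower counts was not tested.

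The other classical and atypical cadherins were mostly undetected in KO and CON tissue alike. For this list and those below, the shares over all tested genes were 24.4% higher and 36.5% lower. Of the 17 other classical and atypical cadherins 12 stayed undetected throughout. Of the 5 tested 3 were lower, 0 higher and 2 not past. Cdhr1, a protocadherin-like protein known from photoreceptors, averaged 9.61 ± 0.23 in KO and 11.49 ± 0.08 in CON (SD, n = 4 each) and fell by 1.88 ± 0.11 (SE), or 3.68-fold. Cdhr3, known from ciliated cells of the human airway, fell by 0.69 ± 0.10 (SE), and Cdh26 by 0.75 ± 0.18 (SE) with detection on 2 KO and 4 CON arrays. VE-cadherin (Cdh5), the cadherin of vessel walls, had a difference of 0.17 ± 0.10 (SE) and did not pass (adjusted p = 0.17), except under cyclic loess (0.37, adjusted p = 0.010).

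Of 9 protocadherins outside the gene clusters, 5 stayed undetected throughout and 1 was seen on 1 CON array alone, and the 3 tested were higher in KO. Without the filter on dim probes 2 others were called lower. Pcdh1, known from human airway epithelium, averaged 9.17 ± 0.17 in KO and 7.14 ± 0.12 in CON (SD, n = 4 each) and rose by 2.03 ± 0.10 (SE), or 4.09-fold. Pcdh7 rose by 1.20 ± 0.14 (SE) and Pcdh17 by 0.50 ± 0.13 (SE). Among 6 Fat, Dachsous and flamingo cadherins, the giant cadherins of planar polarity, 4 were tested, of which 1 was higher, 2 lower and 1 not past. Fat1 fell by 0.69 ± 0.19 (SE), though not under cyclic loess (adjusted p = 0.053), and Celsr1 fell by 0.33 ± 0.13 (SE) with a call lost in 11 of 21 alternatives, among them those without CON1, CON2, CON4, KO1 or KO2 (adjusted p = 0.074 to 0.12). Celsr3, another flamingo cadherin, seen on 4 KO and 0 CON arrays, was at least 1.06-fold higher in KO, and leaving out any KO array left it untested and 0 of the list higher. Celsr2 had a difference of -0.23 (adjusted p = 0.072) and passed in 5 alternatives, among them the authors' normalized values (adjusted p = 0.031) and the one without CON3 (adjusted p = 0.048). Under cyclic loess 0 genes of the list were lower.

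The catenin relatives split. Of 8 tested, 4 were higher, 3 lower and 1 not past. Jup, or gamma-catenin, a catenin of desmosomes, averaged 7.22 ± 0.15 in KO and 5.51 ± 0.39 in CON (SD, n = 4 each). It rose by 1.71 ± 0.17 (SE), with detection on 4 KO and 2 CON arrays. Ctnnbip1, an inhibitor that keeps beta-catenin off TCF factors, rose by 0.86 ± 0.06 (SE), whereas delta-2-catenin (Ctnnd2) fell by 1.05 ± 0.09 (SE) and the desmosomal Pkp2 by 0.79 ± 0.07 (SE). Among 17 tested linkers and nectins of the adherens junction, 5 were higher, 6 lower and 6 not past. Of all tested genes 24.4% were higher and 36.5% lower, so these counts set the list little apart. The lower count was 3 without CON1, CON3 or KO2 and 1 under cyclic loess, and the higher count was 2 under median scaling. Nectin3, an adhesion receptor of the junction that is not a cadherin, averaged 11.72 ± 0.13 in KO and 13.11 ± 0.07 in CON (SD, n = 4 each) and fell by 1.39 ± 0.08 (SE), or 2.62-fold. The actin-side proteins Actn1 and Zyx rose by 0.77 ± 0.09 and 0.63 ± 0.07 (SE), and the scaffold Iqgap1 by 0.38 ± 0.08 (SE), which was lost under median scaling (0.21, adjusted p = 0.091).

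**Figure D4:**
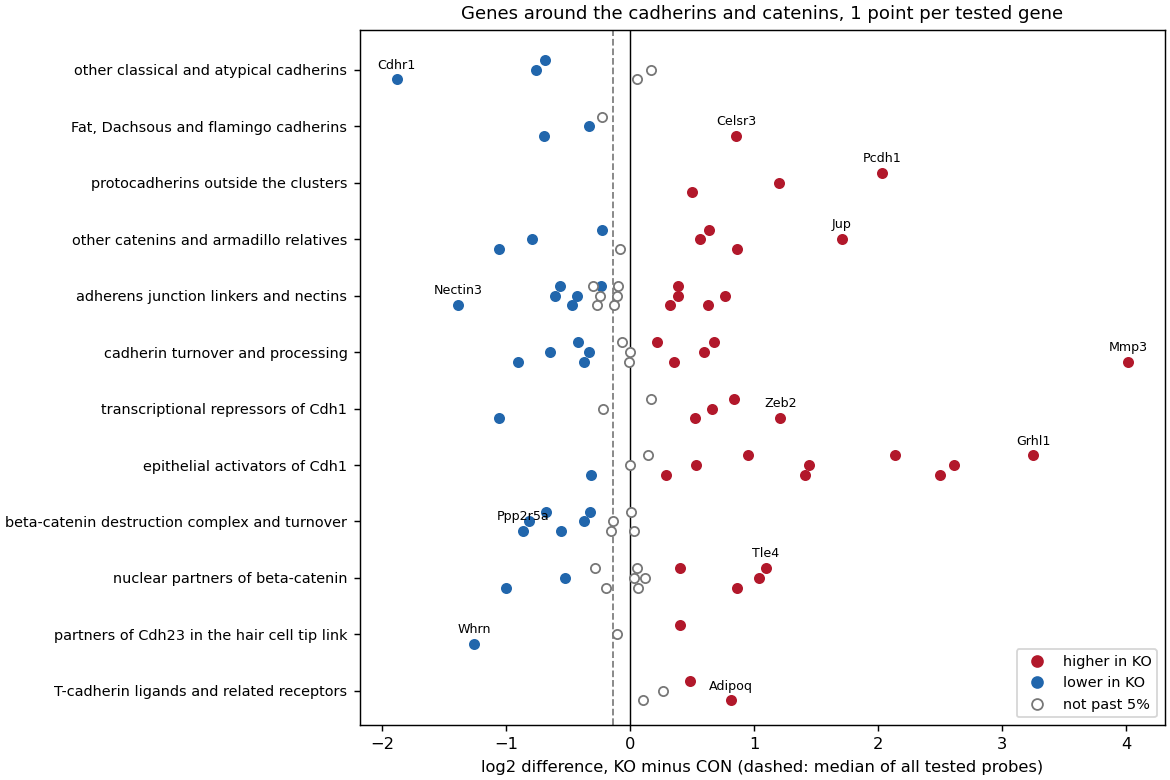
Each point is the log2 difference KO minus CON of 1 tested gene of the 12 lists, filled where it passed the threshold of 5%, with the median of all tested probes as a dashed line. The 3 tested protocadherins lie higher in KO, no gene of the beta-catenin destruction complex is called higher, and the epithelial activators of Cdh1 reach 3.25.

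Among 13 tested genes of cadherin turnover and processing 5 were higher, 5 lower and 3 not past, against 24.4% higher and 36.5% lower of all tested genes. Mmp3, a secreted protease that can cleave E-cadherin, averaged 9.53 ± 0.14 in KO and 5.51 ± 0.33 in CON (SD, n = 4 each), a rise by 4.02 ± 0.15 (SE). It was detected on 4 KO arrays and on 1 CON array, so its size is approximate, and it ranged from 2.35 to 4.20 over the alternatives. The membrane protease Adam15 rose by 0.67 ± 0.06 (SE), and the endocytic adaptor Numb and the kinase Src fell by 0.90 ± 0.10 and 0.65 ± 0.09 (SE).

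Transcription factors on both sides of Cdh1 were mostly higher in KO, against 24.4% of all tested genes higher and 36.5% lower. Of 7 tested repressors of Cdh1, 4 were higher, 1 lower and 2 not past, and without KO1 or under median scaling 2 were lower. Zeb2 averaged 8.13 ± 0.36 in KO and 6.92 ± 0.26 in CON (SD, n = 4 each) and rose by 1.21 ± 0.18 (SE), Snai1 rose by 0.84 ± 0.08 (SE) and Zeb1 by 0.67 ± 0.08 (SE), while Snai3 fell by 1.06 ± 0.09 (SE). Of 12 tested epithelial activators, 9 were higher, 1 lower and 2 not past. These were listed by name, and whether each, Ovol1 included, activates Cdh1 directly was not tested. Grhl1, a grainyhead factor of the epidermis, averaged 10.35 ± 0.08 in KO and 7.10 ± 0.14 in CON (SD, n = 4 each) and rose by 3.25 ± 0.09 (SE), or 9.53-fold. Grhl3, seen on 4 KO and 0 CON arrays, was at least 3.62-fold higher in KO as processed here. That bound depends on the processing, and the difference of Grhl3 ranged from 0.96 to 2.71 over the alternatives. Ovol1 rose by 2.50 ± 0.17 (SE) with detection on 3 CON arrays, and Elf3 by 2.14 ± 0.14 (SE).

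The machinery that destroys beta-catenin was in part lower. Of 10 tested genes 6 were lower, 0 higher and 4 not past, against 36.5% lower and 24.4% higher of all tested genes. Their median was -0.34, against -0.12 over all tested genes. Over the alternatives 3 to 8 were lower and 0 higher. The phosphatase subunit Ppp2r5a averaged 10.78 ± 0.09 in KO and 11.64 ± 0.03 in CON (SD, n = 4 each) and fell by 0.86 ± 0.07 (SE). Axin2, a scaffold that is also a Wnt target, fell by 0.81 ± 0.11 (SE), the ubiquitin ligase subunit Btrc by 0.67 ± 0.06 (SE) and the scaffold Apc by 0.55 ± 0.10 (SE). Of 12 nuclear partners of beta-catenin, Ctnnbip1 among them, 4 were higher, 2 lower and 6 not past. Those that rose most were the corepressor Tle4, by 1.10 ± 0.07 (SE), and the TCF factor Tcf7l1, by 1.04 ± 0.07 (SE), while Pygo1, a coactivator, fell by 0.52 ± 0.09 (SE).

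Few partners of Cdh23 were present. Of 9 hair cell tip link genes 5 stayed undetected throughout, and the 3 tested comprised 1 higher, 1 lower and 1 not past. Whrn, a scaffold of hair cell stereocilia, averaged 10.68 ± 0.13 in KO and 11.93 ± 0.08 in CON (SD, n = 4 each) and fell by 1.25 ± 0.09 (SE), or 2.38-fold. Myo1c rose by 0.40 ± 0.14 (SE) with a call lost in 7 of 20 alternatives, among them those without CON1, CON2, KO2 or KO3 (adjusted p = 0.062 to 0.070), and Myo7a had a difference of -0.10 (adjusted p = 0.31). Of 4 genes for the ligand of Cdh13 and related receptors, 2 were higher and 2 not past, and leaving out any KO array left 1 higher, since Adipoq was then seen on too few arrays. The adiponectin receptor Adipor1 rose by 0.48 ± 0.06 (SE), and adiponectin itself (Adipoq), seen on 4 KO and 0 CON arrays, was at least 1.05-fold higher in KO. Adipor2 and Hspa5 had differences of 0.10 and 0.27 (adjusted p = 0.25 and 0.39).

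**Figure D5:**
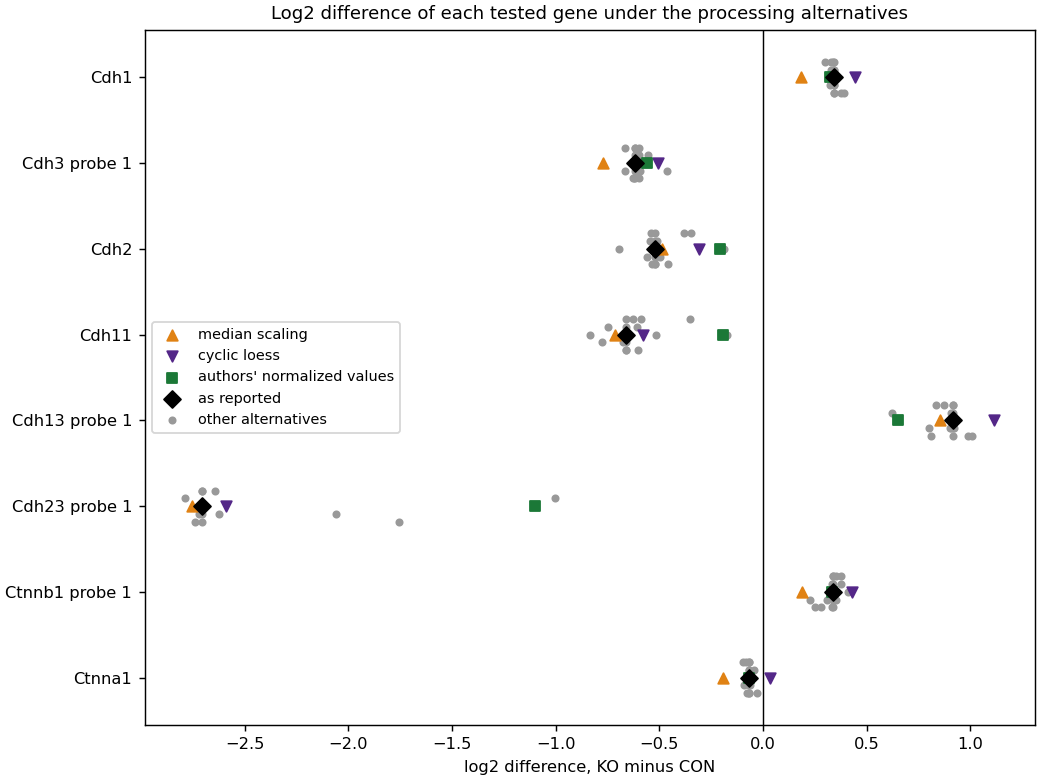
The log2 difference KO minus CON of each tested gene's brightest probe is plotted as reported and under each processing alternative. The differences of Cdh1, Cdh13 and Ctnnb1 stay higher in KO and those of Cdh3, Cdh2, Cdh11 and Cdh23 lower, while that of Ctnna1 lies on both sides of 0 and that of Cdh23 shrinks to -1.002 at its smallest.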

How the data were processed

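Expression was measured on 4 KO and 4 CON Illumina MouseRef-8 arrays. The authors extracted total RNA, hybridised it and summarised the beads with GenomeStudio (version: not given in the sources used here). Of the 2 deposited tables the first, used here, holds bead intensity on a linear scale, not normalized, with a detection p-value that the authors deposited beside each value. The second holds the intensity after normalization by the authors in the same program, and it served as an alternative. Arrays were grouped by their labels.

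Background correction (normexp with negative controls inferred from detection p-values), an offset of 16, quantile normalization and log2 were applied by the neqc function (limma 3.58.1, R 4.3.3). The contrast of KO with CON came from lmFit and eBayes (two-sided, no covariates), with Benjamini-Hochberg adjustment across the 12838 tested probes, and adjusted p-values are from limma except those of the within-array differences. Arrays carry no counts, and their number limits the precision. Where a gene had several probes, the one with the highest mean stood for it. Of 25697 probes 23978 had 1 symbol in the platform annotation, 0 had several and 1719 are unnamed here. A difference between 2 genes within an array was tested with an exact permutation test, adjusted over 3 such contrasts.

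The genes named are the 9 members, Med1, up to 4 tested genes of each of 12 lists by the size of the moderated statistic, and for each tested member the 2 genes most like it. The lists were other cadherins, Fat and flamingo cadherins, protocadherins, other catenins, junction linkers, turnover genes, repressors and activators of Cdh1, the destruction complex, nuclear partners of beta-catenin, tip link partners and T-cadherin ligands. The members and lists were chosen with earlier results of these data known. The fit was tested on simulated data.

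Alternatives were no background correction, an offset of 50, median scaling, cyclic loess, the authors' normalized values, 3 other filters, array weights, a trended robust variance, the replicate block, the mean of a gene's probes, the cutoffs of the study's methods, leaving out each array and, chosen after seeing the data, the second probe of members with several. Tables and figures were made with Python 3.11, pandas 2.3.3, numpy 2.4.6 and matplotlib 3.10.9.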

Additional observations from a re-analysis of the deposited data

Results flagged for a closer look

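In 3 of 28 groups of 4 arrays 1 array stood apart from the rest by Dixon's ratio, the gap to the nearest array over the whole range, beyond its 95% critical value. Chance alone gives about 1 in 20. For Cdh1 the highest CON array, CON3, read 10.66 and the others 10.47 to 10.49, a ratio of 0.872. Without CON3 the difference of Cdh1 was 0.39, with an adjusted p of 0.0031. For Cdh11 the lowest CON array, CON1, read 5.14 and the others 5.74 to 5.80, a ratio of 0.902, and without it the difference was -0.83 with an adjusted p of 0.0035. For the second Cdh23 probe the highest CON array, CON2, read 6.75 and the others 5.96 to 6.07, a ratio of 0.86. Without CON2 that probe was detected on too few arrays to be tested.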

How the results depend on the processing

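Of 59 differences of named genes and probes, 40 kept their direction and their side of the threshold under each alternative in which they were tested. No called difference changed sign, and 4 that had not passed did so in some alternative, those of Ctnna1, the second Ctnnb1 probe, Myo7a and Adipor2. Over all 1192 such values 42 lost a call and 8 gained one. The count of cadherin and catenin genes higher in KO was 1 under median scaling and 1 at the cutoffs of the study's methods (an unadjusted p under 0.005 and a fold over 1.5), against 3. Cdh1 and Ctnnb1 lost their call in both. Cdh2, Cdh11 and the third Cdh3 probe lost theirs at the methods' cutoffs. The count lower was 2 at these cutoffs and 2 with probes detected on all 8 arrays, a filter that leaves out Cdh11 and Cdh23, against 4. With each array left out the counts were 2 to 3 higher and 2 to 4 lower (2 without CON1 or CON4), and leaving out any CON array left Cdh23 with too few detected arrays to be tested. The methods' cutoffs gave 1835 probes higher and 1759 lower, and cyclic loess gave 2850 lower. The share of called probes that were higher was 37.5%, 56.7% under cyclic loess, 30.6% under median scaling and 51.1% at the methods' cutoffs, and the median difference of all tested probes was -0.14, 0.02 under cyclic loess and -0.22 under median scaling. With each array left out 2309 to 2793 probes were higher and 4263 to 4564 lower.

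The shift of Cdh2 against Cdh1 was -0.67 under median scaling, with an exact permutation p of 0.0571. With each array left out it was -1.04 to -0.68, that of Cdh3 against Cdh1 -1.04 to -0.91 and that of Ctnnb1 against Cdh1 -0.08 to 0.09, with no test, since 3 arrays against 4 cannot go below 0.0571. The causes of these changes were not tested, apart from the filters. With the replicate number as a block 3 members were higher and 4 lower, and Celsr1 lost its call (adjusted p = 0.060). The deviations of same-numbered KO and CON arrays correlated at -0.011 to 0.019, and 0 of 4 correlated best with their own number. The labels do not say whether the numbers pair the arrays, and these correlations cannot exclude a pairing. With second probes in place of the brightest 2 members were higher and 4 lower. The files name no slide, so no slide block was run. Dim probes limit Cdh2, Cdh11 and Cdh23, whose brightest probes shrank most in difference without background correction, and Ctnnd1 lay below detection.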

Other observations

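Cdh3 and Cdh1 are next to each other on chromosome 8, with 0 protein-coding genes annotated between them, and the genes around them were read off in annotation order after the values were seen. Before Cdh3 in that order lie Prmt7, an arginine methyltransferase, Smpd3, a neutral sphingomyelinase, and Zfp90, a zinc finger protein. Smpd3 averaged 7.86 in KO and 5.17 in CON, a difference of 2.69 ± 0.13 (SE) with an adjusted p of 7.3e-08. Prmt7 and Zfp90 had differences of -0.25 and -0.21, with adjusted p-values of 0.023 and 0.048. Beyond Cdh1 lie Tango6, which was not tested, Has3, a hyaluronan synthase, and Chtf8, a DNA replication factor. Has3 averaged 6.73 in KO and 8.63 in CON, a difference of -1.89 ± 0.15 (SE) with an adjusted p of 2.4e-06, and Chtf8 had a difference of -0.30 with an adjusted p of 0.011. Neighbours along the stretch thus differed in direction, Cdh3 (-0.62) and Cdh1 (0.34) among them.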
